A study of Mus musculus with 18 samples.

Results

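A set of 37 gene models was lower both when the IRF3 construct was added and when IRF3 was targeted by a hairpin in 3T3-L1 adipocytes. 3T3-L1 is an established mouse fibroblast line, here grown into fat-storing cells. The 37 came from 27473 gene models in the deposited count table. Each had a group mean at or under 0.67 of its control in 3 ratios: cells labelled as overexpressing Irf3 over the green fluorescent protein vector, Irf3 hairpin over luciferase hairpin, and the same hairpin ratio under lipopolysaccharide (LPS). Levels were CPM, counts scaled to a common library total, over all counts outside chromosome M, the mitochondrial genome, and each of the 3 control means had to reach 5 CPM. Gene models raised 2-fold or more by LPS with both hairpins were left out, as were 3 listed gene models and 8 listed regions. The members were thus selected on these measured ratios, which are described here without a test.

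RNA was sequenced from 18 libraries in 6 groups of 3, all from differentiated 3T3-L1 adipocytes at passage 15 that carried a lentiviral vector for 6 days. Irf3_2D carried the vector labelled as overexpressing Irf3, where the meaning of 2D is not explained by the labels. EGFP carried the matching green fluorescent protein vector. The shLuc cells carried a hairpin against luciferase and the shIrf3 cells a hairpin against Irf3. The groups shLuc_LPS and shIrf3_LPS carried the same hairpins and were given LPS, a bacterial cell wall component, for another 6 days, a time that the labels state for the knockdown cells. The sources used here do not say if the untreated cells were harvested earlier, so the effects of LPS and of longer culture cannot be told apart. A single Irf3 hairpin label and a single luciferase hairpin label were used, so an effect of lowering Irf3 and any other effect of that hairpin cannot be told apart. Nothing in the labels ties the 3 libraries of a group to separate cultures, so p-values measure the spread between libraries, which may be technical.

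IRF3 is a transcription factor that lies latent in the cytoplasm. It is phosphorylated downstream of pattern recognition receptors, among them Toll-like receptor 4, the LPS receptor, and then enters the nucleus and switches on type I interferon and related genes. Adipocytes carry Toll-like receptor 4, and inflammatory signalling in fat is known to alter lipid storage and insulin action. Less RNA per cell and fewer cells of a type cannot be told apart in these bulk libraries.

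Gene models carry UCSC known-gene identifiers in the table, and 0 of these occurred in the gene name tables used here. No member is therefore given a gene name or a function. For the same reason the level of Irf3 and of adipocyte or other cell type markers was not checked. Identifiers are printed for 4 members, and a few more are given by their position on mouse build mm9. Total counts ran from 22143302 to 34368259 per library, and the lowest count of any member in any library was 27. In shLuc replicate 1 chromosome M took 14.2% of all counts, and in the other libraries from 2.2% to 7.17%. Without shLuc replicate 1 the rule gave 38 gene models, the 37 members among them. It gave 38 without Irf3_2D replicate 2, again with all 37, and 32 without shLuc replicate 2, with 31 of the 37.

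The selection proceeded in steps. The 3 control means reached 5 CPM for 9595 gene models. Of these, 197 were at or under the ratio limit with the Irf3_2D vector, 109 with the Irf3 hairpin and 78 with the Irf3 hairpin under LPS. Both hairpin ratios were low for 60 gene models, and 46 of them were low with the Irf3_2D vector too. LPS had raised 4 of the 46 by 2-fold or more with both hairpins and 5 were on the list of exclusions, which left the 37. With the direction turned round, 12 gene models were raised by the same factor in all 3 ratios, with the same minimum applied to the 3 groups in which they were high. No exclusions were applied to these 12, so their counterpart is the 46 and not the 37.

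The depth of the decrease differed among the members. The Irf3_2D mean was from 0.202 to 0.658 of the EGFP mean, with a median of 0.459. The shIrf3 mean was from 0.229 to 0.664 of the shLuc mean, with a median of 0.516. Under LPS the hairpin ratio ran from 0.261 to 0.657, with a median of 0.574. Over the 9595 gene models with the same control levels the medians of these ratios were 1.02, 1.01 and 0.994. The lowest of a member's 3 ratios was that of the Irf3_2D vector for 21 members, that of the hairpin without LPS for 11 and that of the hairpin under LPS for 5. A group of 11 members was at 0.5 or less in all 3 ratios.

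**Figure D1:**
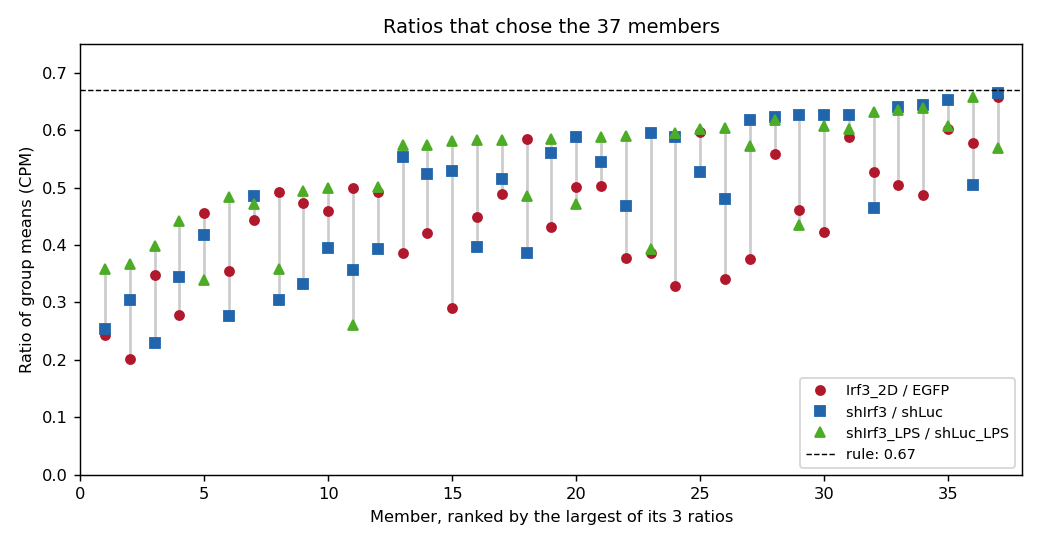
Ratio of group mean CPM (y axis) for each of the 37 members (x axis, ranked by the largest of its 3 ratios) in Irf3_2D over EGFP (circles), shIrf3 over shLuc (squares) and shIrf3_LPS over shLuc_LPS (triangles); the dashed line is the limit of 0.67. The largest ratio of a member rises from 0.359 at the left to 0.664 at the right, and members with alike largest ratios can differ in which comparison holds it.

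The 3 members nearest under the limit had largest ratios of 0.653, 0.657 and 0.664. The 3 gene models nearest over it that met the rest of the rule had 0.682, 0.683 and 0.683.

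The gene model uc011yey.1 had the lowest largest ratio of the set. It lies on the minus strand of chromosome 11 (99963327 to 99966940, mm9) with 7 exons. Its level was 3.69, 10.8 and 6.84 CPM in EGFP replicates 1 to 3 and 1.34, 2.32 and 1.55 CPM in Irf3_2D. It was 3.59, 9.24 and 8.34 CPM in shLuc and 1.34, 1.70 and 2.35 CPM in shIrf3. With LPS it was 6.63, 9.32 and 8.61 CPM in shLuc_LPS and 2.78, 2.94 and 3.09 CPM in shIrf3_LPS. Every control library was above every library of its counterpart, and replicate 1 was the lowest of each control group. The group means stood at 0.244, 0.254 and 0.359 of their controls.

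The gene model uc007xug.1 was second. It lies on the minus strand of chromosome 15 (101759763 to 101770755, mm9) with 9 exons. Its level was 8.37, 13.0 and 14.3 CPM in EGFP and 2.09, 2.97 and 2.2 CPM in Irf3_2D, a ratio of means of 0.202, the lowest of the 37 members in that arm. The shLuc libraries had 10.8, 18.9 and 18.98 CPM and the shIrf3 libraries 3.70, 5.17 and 5.93 CPM. With LPS the values were 11.9, 18.2 and 18.2 CPM in shLuc_LPS and 5.29, 6.76 and 5.69 CPM in shIrf3_LPS. Here too the groups did not overlap, and replicate 1 was the lowest of each control group.

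**Figure D2:**
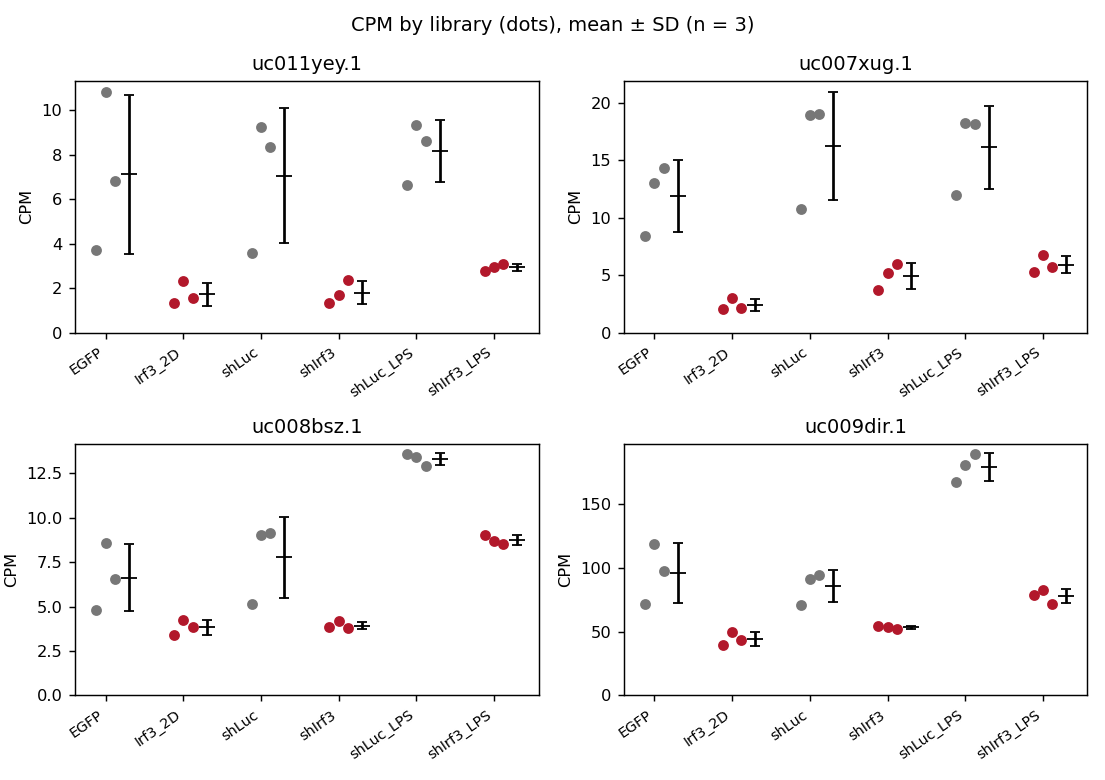
CPM (y axes, from 0) of the 4 members printed by identifier in the 6 groups (x axes); grey dots are control libraries, red dots are Irf3_2D, shIrf3 and shIrf3_LPS libraries, and black bars give the mean ± SD (n = 3). In the panels of uc011yey.1 and uc007xug.1 every red library lies below the grey libraries of its own comparison, and in those of uc008bsz.1 and uc009dir.1 both hairpin groups are higher with LPS.

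Most members separated the libraries completely. In Irf3_2D against EGFP 35 of the 37 members had no overlap between the groups, in shIrf3 against shLuc 34 and under LPS 36. Lower levels with no overlap were found for 8.51%, 8.86% and 21.1% of the 9595 gene models in these comparisons. The rule used the means of these same libraries, so nothing further is read from the counts. All 3 comparisons were free of overlap for 32 members, where 1.73% of the 9595 gene models were lower with no overlap in all 3, and 5 members overlapped in at least 1. In all 9 libraries of Irf3_2D, shIrf3 and shIrf3_LPS, each of the 37 members was below the mean of its control group. The rule used these same control means, and the share among the 9595 gene models is not given here, so nothing is read from it.

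The fit across the whole table called part of the members in each arm. At an adjusted p under 0.05 (edgeR quasi-likelihood test, Benjamini-Hochberg), 17 of the 37 members were called lower in Irf3_2D, where 0.639% of 13931 gene models were. For shIrf3 against shLuc 34 were called lower, where 3.91% of 14970 gene models were. Under LPS 32 were called lower, where 3.31% of 14970 were. These contrasts chose the members, and nothing is read from these counts. The arms were fitted apart, with a biological coefficient of variation of 0.171 in the Irf3_2D arm and 0.0910 in the hairpin arm, and 16 members were called lower in all 3, where 0.295% of the 13892 gene models tested in both fits were. The Irf3_2D count moved with single libraries, to 0 without EGFP replicate 2 or without EGFP replicate 3, 4 without Irf3_2D replicate 1, 6 without Irf3_2D replicate 3, 26 without EGFP replicate 1 and 29 without Irf3_2D replicate 2. The count over the whole table moved too, from 89 to 6, 5, 9, 14, 105 and 548 in these runs, in the same order. Under LPS 21 members were called lower without shIrf3_LPS replicate 1, and 202 in place of 495 of all gene models tested.

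Members were also set against their own group mean in each library, a measure that the rule did not use directly. The rule's means hold the same libraries, and the 3 values of a group are bound by their mean. The values describe the set, and nothing further is read from them. In EGFP replicate 1 all 37 members were below their EGFP mean, with a median of 0.760 of it, against 44.4% of the 9595 gene models. In shLuc replicate 1, the library with the high chromosome M share, 36 were below their group mean, with a median of 0.790, against 68.9% of the 9595. In shLuc_LPS replicate 1 it was 29 members, with a median of 0.884, against 37.3% of the 9595. In EGFP replicate 2 there were 3 members below the mean, with a median of 1.21, against 41.9% of the 9595, and in EGFP replicate 3 there were 15, with a median of 1.02, against 62.8%. In shLuc replicate 2 there were 3, with a median of 1.13, against 40.3%, and in shLuc replicate 3 there were 5, with a median of 1.09, against 35.6%. In shLuc_LPS replicate 2 there were 5, with a median of 1.07, against 56.3%. For shLuc_LPS replicate 3 it was 12, with a median of 1.03, against 59.4%.

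In the groups labelled as having altered Irf3, the member medians relative to their own group mean were 0.916, 1.13 and 0.927 in Irf3_2D replicates 1 to 3. They were 0.897, 1.03 and 1.10 in shIrf3 and 0.944, 1.08 and 0.954 in shIrf3_LPS. Over the 9595 gene models the same medians lay between 0.962 and 1.02 in these 9 libraries. The part of RNA quality or of the degree of differentiation in these shifts was not tested.

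**Figure D3:**
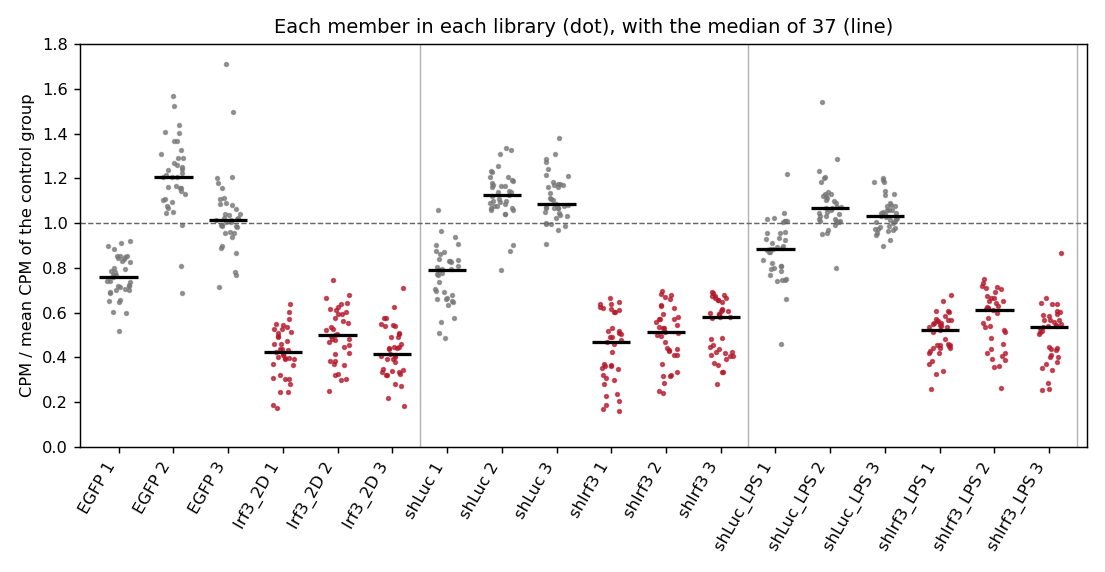
CPM of each of the 37 members (dots) in each of the 18 libraries (x axis), divided by the member's mean in the control group of its comparison (y axis; EGFP, shLuc or shLuc_LPS); black lines are medians over the 37. The medians of the red libraries (Irf3_2D, shIrf3, shIrf3_LPS) lie between 0.413 and 0.611, and replicate 1 has the lowest median of each grey control group, at 0.760, 0.790 and 0.884.

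Most members had no LPS call, and those called were higher with LPS. In the luciferase hairpin cells 7 of the 37 members (18.9%) were called higher with LPS, where 4.27% of 14970 gene models were, and 0 were called lower, where 4.45% were. In the Irf3 hairpin cells 8 members (21.6%) were called higher, where 4.17% of all tested were, and 0 lower, where 3.84% were. The median log2 fold change of the members was 0.13 in shLuc and 0.26 in shIrf3, beside -0.01 and 0.00 over all gene models tested. By separation of the libraries, with shLuc 11 members were higher and 0 lower with LPS with no overlap, where 14.9% and 9.12% of the 9595 gene models were. With shIrf3 18 were higher and 2 lower in this way, where 19.4% and 18.6% were. With both hairpins 5 members were called higher, where 2.67% of the 14970 gene models were. Another 2 were called with shLuc alone and 3 with shIrf3 alone, where 1.6% and 1.5% were. The other 27 were called with neither hairpin, as were 88.3% of all tested.

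These LPS comparisons share all their libraries with the hairpin ratios that chose the members. The rule had also removed the gene models most raised by LPS, so the counts describe the set and are not independent of its choice. With all 18 libraries in one fit 4 members were called higher in shLuc and 3 in shIrf3, where 350 and 284 of 15083 gene models were. Without shLuc replicate 1 the median log2 fold change of the members in shLuc was -0.01, with 5 members called higher and 2 lower. Of 15188 gene models 957 were then called higher and 783 lower. For shIrf3 the count of members called higher was 3 without shIrf3 replicate 1, 5 without shIrf3 replicate 2 and 3 without shIrf3_LPS replicate 2. It was 12 without shLuc replicate 1, with 1 then called lower. The count called higher over the whole table moved too, from 624 to 383, 460, 423 and 883 in these runs, in the same order. Without shLuc replicate 1, 983 gene models were called lower.

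The gene model uc008bsz.1 had the largest mean log2 fold change with LPS among the 5 called with both hairpins. It lies on the plus strand of chromosome 17 (29627990 to 29632404, mm9) with 7 exons. Its level was 5.15, 9.06 and 9.13 CPM in shLuc and 13.6, 13.4 and 12.9 CPM in shLuc_LPS. It was 3.83, 4.18 and 3.78 CPM in shIrf3 and 9.04, 8.70 and 8.52 CPM in shIrf3_LPS. All LPS libraries were above all libraries of the same hairpin without LPS. The log2 fold change with LPS was 0.74 ± 0.14 (SE) in shLuc (edgeR adjusted p = 0.00292) and 1.12 ± 0.16 in shIrf3 (edgeR adjusted p = 0.000212). In EGFP it stood at 4.80, 8.57 and 6.54 CPM, and in Irf3_2D at 3.39, 4.27 and 3.84 CPM. The mean was 8.75 ± 0.265 CPM in shIrf3_LPS and 7.78 ± 2.28 CPM in shLuc (SD, n = 3), and this difference was not tested.

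The gene model uc009dir.1 was second. It lies on the plus strand of chromosome 6 (115084920 to 115232644, mm9) with 14 exons. Its level was 71.0, 91.3 and 94.1 CPM in shLuc and 167.0, 180.3 and 188.7 CPM in shLuc_LPS. It was 54.5, 53.7 and 52.1 CPM in shIrf3 and 78.9, 82.4 and 71.5 CPM in shIrf3_LPS. Neither hairpin showed an overlap between LPS and no LPS. The log2 fold change with LPS was 1.02 ± 0.08 (SE) in shLuc (edgeR adjusted p = 3.1e-07) and 0.51 ± 0.08 in shIrf3 (edgeR adjusted p = 0.000927). The call in shIrf3 ended with all 18 libraries in one fit (0.46, edgeR adjusted p = 0.0959).

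Whether LPS changed the hairpin ratio of the members was asked with the interaction of hairpin and LPS, the difference between the LPS responses of shIrf3 and shLuc cells. In edgeR 0 of the 37 members passed, as did 0.0% of all 14970 gene models, and 5 members had an unadjusted p under 0.05. DESeq2 also called 0 members, with 7 at an unadjusted p under 0.05. The share of all gene models under that unadjusted limit is not given here, so nothing is read from these counts. The differences ran from -0.59 to 0.82 on the log2 scale, with a median of 0.13. The LPS ratio was larger in shIrf3 than in shLuc for 23 of the 37 members (62.2%) and for 42.0% of the 9595 gene models. The fitted difference was above 0 for 17 members without shLuc_LPS replicate 1 and for 31 without shLuc replicate 1, the range with each library left out. The member median was -0.01 and 0.25 in these runs, beside 0.03 and 0.01 over all gene models tested. The share of all gene models above 0 is not given for these runs. A difference that misses the threshold is not shown to be absent. The interaction is also the difference between the 2 hairpin ratios that the rule used.

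**Figure D4:**
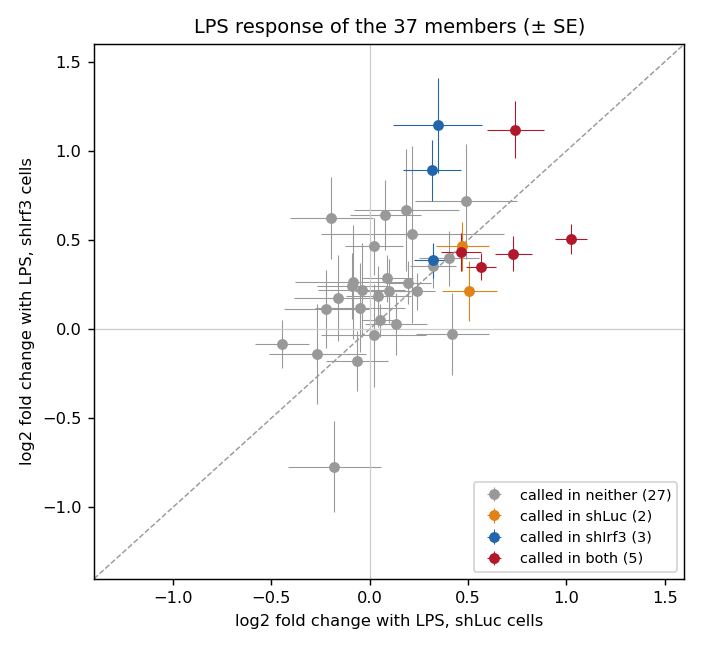
Fitted log2 fold change with LPS (± SE) of each of the 37 members in shLuc cells (x axis) and shIrf3 cells (y axis), coloured by the hairpin in which edgeR called it; the dashed line marks equal responses. The 10 called members all lie above 0 on both axes, 5 of them called with both hairpins.

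The lowest LPS response in shIrf3 cells belonged to a 9-exon member on chromosome 1 (164805178 to 164828843, mm9), singled out after its values were seen. It stood at 18.7, 18.1 and 17.6 CPM in shIrf3 and at 11.6, 10.7 and 10.3 CPM in shIrf3_LPS. The libraries did not overlap, but the log2 fold change of -0.77 ± 0.26 (SE) did not pass (edgeR adjusted p = 0.103). In shLuc it stood at 17.0, 37.5 and 37.0 CPM, so that replicate 1 lay below all shIrf3 libraries and the others above them.

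The members spanned a wide range of levels. Their shLuc means ran from 6.02 to 712 CPM with a median of 27.1, beside a median of 44.9 over the 9595 gene models. By exon length, the shLuc means ran from 1.59 to 128 CPM per kilobase with a median of 9.77, beside 12.5. In shLuc 8 members had a mean under 10 CPM, 17 a mean from 10 to under 50, 10 a mean from 50 to under 200, and 2 a mean of 200 CPM or more. The shLuc mean was from 0.658 to 2.38 times the EGFP mean with a median of 0.991, and 15 of 37 were higher in shLuc. The 2 arms differ in vector, and a difference between their controls was not tested.

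The most abundant member, also the highest per kilobase in shLuc, was singled out after its values were seen. It is a 19-exon gene model on the plus strand of chromosome 16 (32608982 to 32632880, mm9). Its level was 655, 1018 and 1081 CPM in EGFP and 399, 554 and 401 CPM in Irf3_2D. It was 577, 832 and 728 CPM in shLuc and 259, 291 and 289 CPM in shIrf3. With LPS it was 441.5, 604 and 571 CPM in shLuc_LPS and 244, 276 and 290.2 CPM in shIrf3_LPS. The groups of each comparison did not overlap. The log2 fold change with LPS was -0.44 ± 0.14 (SE) in shLuc, the lowest of the 37 there, and did not pass (edgeR adjusted p = 0.0617).

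At the other end of precision, a 5-exon member on chromosome 12 (55279968 to 55304861, mm9), also singled out after its values were seen, varied widely inside its groups. Its level was 9.65, 11.0 and 27.4 CPM in EGFP and 6.33, 7.33 and 4.53 CPM in Irf3_2D. Under LPS it was 14.7, 49.3 and 31.9 CPM in shLuc_LPS and 15.4, 13.4 and 27.8 CPM in shIrf3_LPS, where the groups overlapped. It met the rule by its means and was called in none of the 3 contrasts.

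Outside the 8 listed regions that the rule left out, the members were spread over the genome. They lay on 15 chromosomes, with 4 on each of chromosomes 6, 11 and 19, 3 on each of chromosomes 2, 5, 7 and 12, and 1 or 2 on each of the others that held any. Of the 9595 gene models, 4.95% were on chromosome 6, 8.23% on chromosome 11 and 3.74% on chromosome 19. In structure they were near the background: a median of 9 exons beside 10, and a median exon length of 3120 bases beside 3692. Exons on both strands were listed for 5 members (13.5%) and for 11.0% of the 9595. Such counts can hold reads of overlapping genes, which an unstranded library cannot tell apart. Exon bases were shared with another gene model of the table for 4 members.

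Members within 500000 bases of each other formed 2 pairs. The 8 listed regions had been left out beforehand, so the number of pairs depends in part on the rule. Neighbours on chromosome 8 (95689971 to 95721703 and 95780135 to 95803635, mm9) met all 3 ratios and were left out as listed. On chromosome 6 a 5-exon member on the minus strand (115195634 to 115201867, mm9) lies inside the span of uc009dir.1 on the plus strand, and the pair shares 0 exon bases. The inner member stood at 15.5, 18.8 and 18.9 CPM in shLuc, 9.04, 8.88 and 7.88 CPM in shIrf3, 21.99, 20.6 and 22.2 CPM in shLuc_LPS and 11.5, 9.45 and 9.51 CPM in shIrf3_LPS. Its hairpin groups did not overlap with or without LPS. All its LPS libraries were above those of the same hairpin without LPS, but the LPS response did not pass with either hairpin, at log2 fold changes of 0.24 ± 0.09 and 0.21 ± 0.10 (SE; edgeR adjusted p = 0.143 and 0.244). The difference between the responses of the pair was not tested.

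The other pair lies on chromosome 2, where 33548 bases and 0 other gene models separate a 13-exon member (172919110 to 172945026, mm9, exons on both strands) from an 8-exon member on the plus strand (172978574 to 172984754). The 8-exon member was abundant, at 172.6, 248 and 197 CPM in EGFP and 62.8, 79.3 and 68.8 CPM in Irf3_2D. It stood at 153, 212 and 230.3 CPM in shLuc and 72.6, 98.4 and 114.8 CPM in shIrf3. The 13-exon member stood at 5.34, 8.57 and 4.90 CPM in EGFP, 3.30, 2.41 and 3.18 CPM in Irf3_2D, 9.93, 11.3 and 16.4 CPM in shLuc and 3.74, 4.01 and 4.74 CPM in shIrf3. Neither member had overlapping groups in these 2 comparisons. With LPS in shIrf3 cells the 13-exon member rose to 7.37, 9.20 and 7.17 CPM, by 0.89 ± 0.17 on the log2 scale (SE; adjusted p = 0.00287 in edgeR). The 8-exon member had a log2 fold change of 0.11 ± 0.22 there (edgeR adjusted p = 0.827). In shLuc cells the log2 fold changes with LPS were 0.32 ± 0.15 for the 13-exon member and -0.22 ± 0.22 for the 8-exon member. Neither passed (SE; edgeR adjusted p = 0.228 and 0.657). The difference between the 2 members was not tested. The 13-exon member shares exon bases with 1 other gene model.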

How the data were processed

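Each deposited value is a raw count of reads on a gene model, in whole numbers and without normalization. The submitters' processing notes name build mm9, edgeR, featureCounts 1.4.6, SAMtools 0.1.19, Picard 2.2.4, TopHat2 2.0.14 and bcl2fastq 2.17.1.14, with settings not given in the sources read for this text. Per the labels' protocols, 70 ng of total RNA was depleted of ribosomal RNA before a TruSeq RNA v2 library preparation, a kind that leaves strand unmarked. Per the file headers, the deposited table also lists exon positions and another column, the exon length of each gene model. Groups came from sample titles. Members followed the CPM rule given above. The members, lists and tests were chosen with earlier results of these data known. Gene lists and markers that need symbols were not used.

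Counts were tested in R 4.3.3 with edgeR 4.0.16 (filterByExpr by group, TMM, robust glmQLFit, glmQLFTest), the Irf3_2D arm from 6 libraries and the hairpin arm from 12, with Benjamini-Hochberg adjustment over all gene models tested. A standard error is the absolute log2 fold change over the square root of F. The test was checked on simulated counts. Printed identifiers are the first 2 members by largest ratio and the first 2 by mean size of log2 fold change among those called with LPS for both hairpins. The alternatives comprised limma-voom (limma 3.58.1), DESeq2 1.42.0, other scalings, filters and fits, and each library left out.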

Additional observations from a re-analysis of the deposited data

How the results depend on the processing

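The rule gave 11 members with a ratio of 0.5 or less, 70 with control means of 1 CPM or more and 21 with control means of 20 CPM or more. It gave from 32 to 41 when each library was left out in turn, and 24 of the 37 members stayed in all 18 such runs. With all counts, with TMM scaling and with group medians it gave 36, 36 and 39. Members called lower in Irf3_2D against EGFP numbered 33 with all 18 libraries in one fit, 34 with DESeq2 and 26 with no low-count filter, and from 0 to 29 with each library left out. The range with each library left out was 27 to 36 members for shIrf3 against shLuc and 21 to 34 for shIrf3_LPS against shLuc_LPS. It was 5 to 10 members higher with LPS in shLuc, 3 to 12 higher with LPS in shIrf3, and 0 to 0 for the interaction. Over the whole table the ranges before the interaction were 226 to 1121, 198 to 910, 440 to 982 and 383 to 1090, in the same order. For the interaction 0 to 14 gene models of the whole table were called higher and 0 to 11 lower. With all 18 libraries in one fit 4 members were higher with LPS in shLuc and 3 in shIrf3, where 350 and 284 of 15083 gene models were. With LPS in shLuc 1 member was called lower with DESeq2 and 1 with limma-voom, and from 0 to 2 with each library left out. With LPS in shIrf3 1 was called lower with DESeq2 and 1 from the 6 libraries of the groups compared alone, and from 0 to 1 with each library left out. For the interaction 0 members were called in all 21 alternatives run, and from 2 to 12 had an unadjusted p under 0.05. No share of all gene models stands beside these unadjusted counts. The interaction takes in all 12 libraries of the hairpin arm, so no separate fit from the groups compared alone was made for it.

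The replicate numbers were not used as pairs, because in each comparison at least 1 same-numbered pair of libraries had a correlation of deviations of 0.1 or less. Pairing is not excluded by this, since deviations inside a group of 3 depend on one another. For shIrf3_LPS against shLuc_LPS the same-numbered correlations were 0.323, 0.005 and 0.0914. For Irf3_2D against EGFP they were 0.527, -0.0552 and -0.570. Differently numbered pairs of that arm ran from -0.566 to 0.636, so the replicate number may not match the libraries there. Replicate 1 also had the lowest member median, relative to the group mean, in all 6 groups. With the replicate number as a block, 25 members were lower in Irf3_2D, 34 in shIrf3 and 34 under LPS, 9 were higher and 1 lower with LPS in shLuc, 11 were higher with LPS in shIrf3, and 0 passed the interaction.

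The Irf3_2D call of uc011yey.1 ended in 6 alternatives, at log2 fold changes from -2.06 to -1.64, and that of uc007xug.1 in 3, at -2.27 to -2.14. Under LPS the hairpin call of uc011yey.1 ended without shIrf3_LPS replicate 1, at -1.45 (edgeR adjusted p = 0.0515). The limit set by depth was not tested, and the lowest count of a member in a library was 27.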
